A study of Mus musculus with 16 samples.

Results

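The genes described here belong to the Wnt and Notch pathways and to the transcription factors and ephrins of the intestinal crypt. They were taken by name from the tables of whole colon RNA-seq, using a fixed pattern of gene family names, and 29 of the 5171 distinct genes in the 4 tables matched. The mice were C57BL/6 males, either wild type (WT) or with Villin-cre (Vil-Cre) mediated deletion of Smarcad1, a chromatin remodeling ATPase, in the intestinal epithelium (KO). The KO line descends from 1 targeted embryonic stem cell clone, and the deletion leaves Smarcad1 intact in stroma, muscle, nerve and immune cells. All mice, controls included, received an enriched microbiota by bedding transfer and shared ventilation with donor mice, starting 2 weeks before colitis induction. There were 3 WT control and 3 KO control libraries without dextran sulphate sodium (DSS), a polymer that injures the colon lining, and 5 WT colitis and 5 KO colitis libraries after 1% DSS in drinking water for 15 days. All RNA, controls included, was freed of DSS by precipitation. The ages of the mice are not given in the sources used here. The comparisons address whether loss of Smarcad1 in the epithelium alters gene expression in colon and its response to colitis.

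The epithelium of the colon is renewed from stem cells at the base of the crypts. Wnt ligands and R-spondins, secreted largely by the fibroblasts around the crypt, act through Frizzled receptors and Lrp co-receptors on β-catenin and TCF/LEF factors, and keep these cells dividing. Notch signalling between neighbouring cells holds back secretory differentiation, ephrins and their Eph receptors position cells along the crypt axis, and Hnf and Klf factors act mainly in differentiation and metabolism.

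Values are group means of log2 RPM (reads scaled to a common library size, without correction for gene length), one for each of the 4 groups, and values of single mice were not analysed here, so that no SD is given and the overlap of single libraries between groups cannot be seen. "Rose" and "fell", or a verb of the same sense, are used below only for genes held by the deposited table of that comparison, which lists genes that passed the authors' adjusted p-value threshold of 0.05. For other genes the difference of the means is given as a value. The geometric mean library size was 8.005 (WT colitis) to 10.1 (WT control) M reads per group. Numbers of reads given below are group means turned back into reads of such a library, folds are ratios of these geometric means, and a mean of 3 reads per library, taken as the floor, lay between −1.75 and −1.42 log2 RPM. Smarcad1 itself was lower in KO by 1.18 on the log2 scale in control (5.77 against 4.59 log2 RPM) and by 1.13 in colitis (5.68 against 4.55). A change in whole tissue can come from fewer cells of a type or from less RNA per cell, and these cannot be told apart here.

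The members spanned a wide range of expression. Per length, in log2 RPKM (RPM divided by the exon length in kilobases, computed with the exons of the GENCODE annotation), the highest level in WT control was that of Hnf4a, a nuclear receptor that maintains enterocyte identity, at 8.75. It was followed by Klf6 (6.69), the Notch-modulating factor Hes6 (6.49) and ephrin-B1, Efnb1 (6.32). The lowest levels were those of the ligand Wnt8b (−2.03) and the receptor Fzd10 (−0.75). Hnf4a at 11.02 log2 RPM shows that epithelial RNA was sampled, whereas none of the 6 general epithelial markers looked up (such as Epcam and Krt8) is in a table, and their values were not analysed here.

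**Figure D1:**
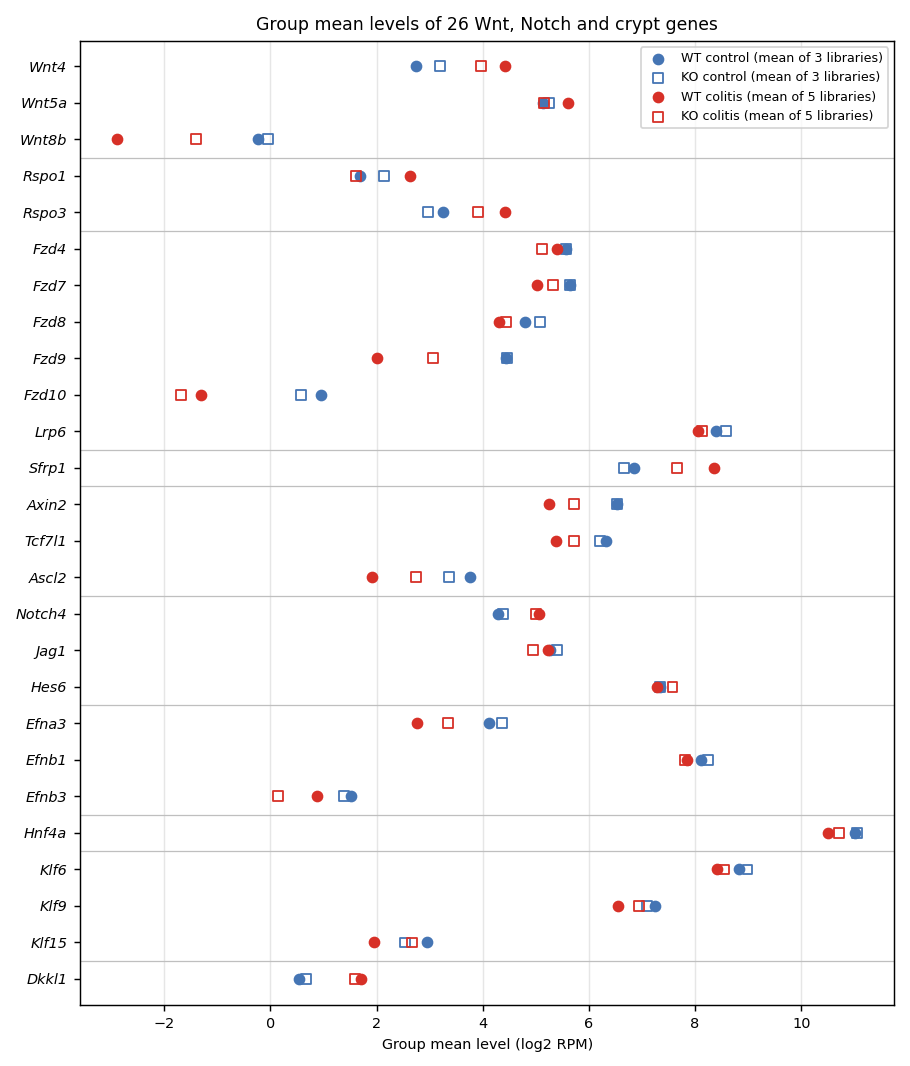
Group mean level of 26 of the 29 genes on the horizontal axis (log2 RPM), with genes grouped by role. Circles are WT, open squares KO, blue control and red colitis, each the mean of 3 (control) or 5 (colitis) libraries. Red symbols lie left of blue ones for most genes, and right of them for Wnt4, Rspo3, Sfrp1, Notch4 and Dkkl1.

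In WT colon, 7 members rose with colitis and 14 fell, 24.1% and 48.3% of the 29. Over all 5171 genes in the tables, 63.1% passed in WT, with 36.6% rising and 26.4% falling. Because every gene in the tables passed at least 1 comparison, these shares are high by construction and only their order can be read. With a change of at least 1 on the log2 scale, 4 members were higher and 8 lower, against 18.4% and 13.0% of genes. The median change over the members was −0.50, beside 0.13 over all genes. In KO colon 5 members rose and 15 fell (17.2% and 51.7%), beside 44.8% and 33.6% of all genes (78.4% together). Here no member was higher by at least 1 and 7 were lower, beside 15.9% and 12.6% of genes, and the median was −0.44 beside 0.19. The absence of higher members in KO depends on the threshold. Sfrp1 (0.99), Rspo3 (0.94) and Dkkl1 (0.93) lay just under it, and at 1.5-fold 6 members were higher in WT and 5 in KO. The members thus lay on the falling side in both genotypes, where all genes were on balance on the rising side.

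**Figure D2:**
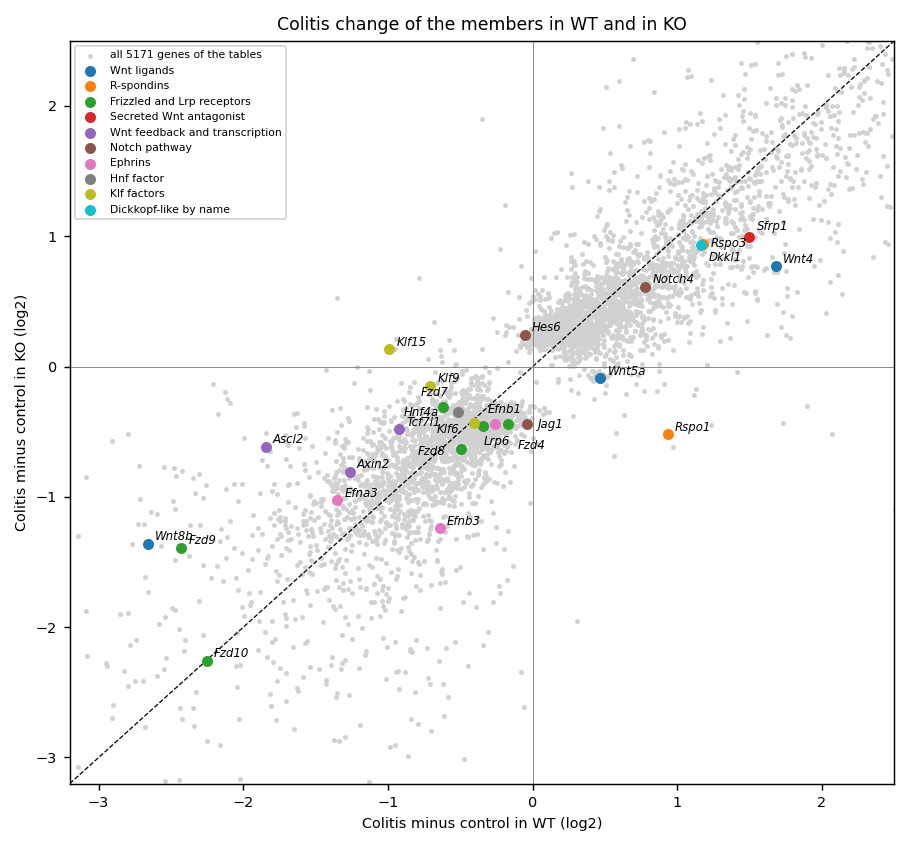
Change of the group mean with colitis in WT (horizontal axis, log2) and in KO (vertical axis, log2). Coloured points are 26 of the 29 genes by role, grey points all 5171 genes within the plotted range, and the dashed line marks equal change. Rspo1, Wnt5a, Klf15 and Hes6 have opposite signs in WT and KO, and Wnt8b had a WT colitis mean under the floor of 3 reads.

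The Wnt ligands did not move as a group. Wnt4, a ligand expressed in both stromal and epithelial cells of many organs, had means of 2.73 log2 RPM in WT control, 3.20 in KO control, 4.41 in WT colitis and 3.97 in KO colitis. It rose in WT by 1.68 (3.21-fold) and in KO by 0.77 (1.71-fold), the largest rise among the members in WT. Wnt5a, a ligand of stromal cells that acts mostly without β-catenin and is linked to crypt repair after injury, lay at 5.14 in WT control and 5.24 in KO control. It rose in WT colitis to 5.61 (1.38-fold), and its KO colitis mean was 5.15, a difference of −0.09 from KO control. Wnt8b, a ligand best known from the developing brain, fell in WT from −0.23 to −2.89 log2 RPM. That is a drop from 8.62 to 1.08 reads per library, and measured against the floor of 3 reads it was −1.18. In KO it went from −0.04 to −1.40 (9.50 to 3.74 reads). Wnt4 lies on chromosome 4 from 137277489 to 137299726, Wnt5a on chromosome 14 from 28504750 to 28527448 and Wnt8b on chromosome 19 from 44493472 to 44514273, all on the plus strand of GRCm38.

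R-spondins raise the number of Wnt receptors on the cell surface and are required by Lgr5 stem cells. Rspo3, on chromosome 10 from 29452416 to 29535867, rose from 3.25 to 4.42 log2 RPM in WT (2.26-fold) and from 2.96 to 3.91 in KO (1.92-fold). Rspo1, on chromosome 4 from 124986430 to 125009099, rose in WT from 1.69 to 2.63 (1.91-fold). In KO it stood at 2.13 in control and 1.61 in colitis, a difference of −0.52. It was the only member with changes of at least 0.3 in opposite directions, and its KO colitis mean was the lowest of the 4. Its depth was modest, at 30.2 to 49.4 reads per library. Sfrp1 (chromosome 8 from 23411502 to 23449632), a secreted protein that binds Wnt ligands and blunts their action, was 6.85 in WT control and 6.66 in KO control. It rose to 8.35 in WT colitis (2.82-fold) and to 7.65 in KO colitis (1.99-fold). Dkkl1, which carries the name of the Dickkopf antagonists but is known as an acrosomal protein of sperm, rose in WT from 0.54 to 1.70 log2 RPM. Its KO means were 0.67 and 1.60.

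R-spondins and Sfrp1 are known largely as stromal products, and stromal markers rose beside them. Which cells expressed them, or Wnt4, was not measured in whole tissue. Of 6 fibroblast markers 5 are in the tables, and all 5, among them Col1a1, Col1a2 and Lum, rose in both genotypes, with a median of 1.01 in WT and 0.56 in KO. Their summed level, over all 5, went from 2555 to 4935 RPM in WT and from 2479 to 3670 RPM in KO, and none of the 5 was under the floor in any group. The part of these cells in the rise of Wnt4, Rspo3 and Sfrp1 was not tested.

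The receptors in the tables lay on the other side. All 6 receptor members (5 Frizzled genes and the co-receptor Lrp6) had lower means in colitis in both genotypes, and 3 passed in WT and 5 in KO. Of all genes, 63.1% passed in WT and 78.4% in KO, with 26.4% and 33.6% falling. The other Frizzled genes and Lrp5 are in no table, and their values were not analysed here. Fzd9, on chromosome 5 from 135248938 to 135251230, had means of 4.44 log2 RPM in WT control, 4.45 in KO control, 2.01 in WT colitis and 3.06 in KO colitis. It fell 5.39-fold in WT and 2.63-fold in KO. Fzd10 fell 4.77-fold in WT and 4.79-fold in KO, from 19.6 and 14.5 reads per library to 3.25 and 3.06 reads, just above the floor. Fzd8 fell in KO by 0.64, and its WT difference was −0.50. For Fzd4, Fzd7 and Lrp6, the changes lay between −0.62 and −0.17 in WT, where Fzd7 fell, and between −0.45 and −0.31 in KO, where Fzd4 and Lrp6 fell. The steep falls were thus those of Fzd9 and Fzd10. Fzd10 was the receptor with the lowest level per length in WT control, whereas Fzd9, at 3.24 log2 RPKM, was near Fzd7 (3.47).

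Of 3 members that report or carry out Wnt signalling in crypt cells, all 3 fell in WT and 1, Axin2, fell in KO. Axin2, on chromosome 11 from 108920349 to 108950783 (plus strand), is a scaffold of the β-catenin destruction complex and a standard target of the pathway. Its means were 6.52 log2 RPM in WT control, 6.53 in KO control, 5.25 in WT colitis and 5.72 in KO colitis. It fell 2.40-fold in WT and 1.75-fold in KO. Ascl2, on chromosome 7 from 142966829 to 142969264 (minus strand), encodes the transcription factor that sets the stem cell state in the crypt base. It lay at 3.75 in WT control and 3.37 in KO control. In WT colitis it fell to 1.91 (3.59-fold, from 136 to 30.0 reads per library). In KO colitis it was 2.75, a difference of −0.62 (from 101 to 66.3 reads), and it is not in the KO table. Tcf7l1, a TCF factor that mostly acts as a repressor, fell in WT from 6.31 to 5.39, and in KO its means were 6.20 and 5.72. The order of the groups was thus the same for these 3 genes, with WT colitis lowest, KO colitis next and both control groups highest. Ascl2 and Tcf7l1 are in the WT colitis table alone, and 96.5% of all genes in that position had a smaller change in KO. Their order therefore says nothing about the genotypes.

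The upstream sequences of Ascl2 and Axin2 are shown because both are known target genes of TCF/LEF factors and both lay lowest in WT colitis. They are the 250 bases before the RefSeq start site (GRCm38.p6), written 5′ to 3′ on the strand of the gene, which is minus for Ascl2 (chr7:142969265-142969514) and plus for Axin2 (chr11:108920099-108920348). Capitals would mark the core letters CTTTG or the E-box CACGTG on either strand, and neither sequence holds one. Only these 250 bases were searched, so whether either gene has such letters elsewhere was not examined.
Ascl2: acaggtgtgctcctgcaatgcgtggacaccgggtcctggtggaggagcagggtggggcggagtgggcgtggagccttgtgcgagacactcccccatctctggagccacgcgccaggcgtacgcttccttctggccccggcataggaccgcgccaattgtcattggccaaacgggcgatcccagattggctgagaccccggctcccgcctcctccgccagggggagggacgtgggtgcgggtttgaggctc
Axin2: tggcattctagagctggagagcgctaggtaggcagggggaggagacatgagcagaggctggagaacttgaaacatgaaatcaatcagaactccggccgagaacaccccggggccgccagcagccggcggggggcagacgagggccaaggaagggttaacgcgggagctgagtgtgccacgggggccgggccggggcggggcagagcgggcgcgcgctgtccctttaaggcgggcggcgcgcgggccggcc
Such windows were found for 20 of the 29 members. The longer TCF/LEF forms CTTTGAT and CTTTGAA, searched on both strands, were in 0 of the 20 and in 7.48% of 32851 upstream windows of that length. CTTTG, which both forms contain, was in 5 members (Fzd7, Fzd10, Hes6, Tcf7l1 and Wnt8b) and in 48.6% of all windows, and TGGGAA, the core letters bound by the Notch effector Rbpj, was in 2 (Efnb1 and Tcf7l1) and in 21.6%.

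Of the Notch pathway, 3 members were in the tables and none changed by as much as 1. Notch4, the Notch receptor of blood vessel endothelium, rose from 4.28 to 5.06 log2 RPM in WT (1.72-fold) and from 4.39 to 5.00 in KO (1.53-fold). None of 5 endothelial markers looked up is in a table, and their levels were not analysed here. The ligand Jag1 had WT means of 5.26 and 5.22, and in KO it fell from 5.40 to 4.95. Hes6, a relative of the Hes repressors that opposes Hes1, had WT means of 7.35 and 7.29, and in KO it rose from 7.33 to 7.57. For Jag1 and Hes6 the passing changes were thus small, at 1.36-fold and 1.18-fold.

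Ephrins are membrane-bound ligands, and all 3 in the tables were lower in colitis in both genotypes. Efna3 fell from 4.11 to 2.76 log2 RPM in WT (2.55-fold) and from 4.37 to 3.34 in KO (2.04-fold). Efnb1, the most abundant of them, fell in KO from 8.25 to 7.81, while its WT means were 8.11 and 7.85. Efnb3 fell in KO from 1.39 to 0.15 (2.36-fold, 25.6 to 10.9 reads per library), and in WT it was 1.52 in control and 0.88 in colitis. Efnb3 is known best from nervous tissue, and of 6 enteric neuron and glia markers the 3 in the tables (Elavl4, Tubb3 and Ret) had a median change of −0.67 in WT and −0.91 in KO. Their summed level went from 88.8 to 63.8 RPM in WT and from 80.4 to 43.3 RPM in KO, and their part in the values of Efnb3 was not tested.

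Of the Hnf factors, Hnf4a, on chromosome 2 from 163506808 to 163572910, fell from 11.02 to 10.50 log2 RPM in WT (1.43-fold) and from 11.06 to 10.71 in KO (1.28-fold), with 11615 reads per library in the group where it was lowest. It was the most abundant member in every group, and its change was modest beside those of Axin2 and Ascl2 in WT. The sources used here do not state that reads were counted by strand. Axin2, Efna3, Rspo3, Tcf7l1 and Wnt5a share 3.80% to 14.1% of their exon length with antisense genes, and reads over those bases cannot be told apart.

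Of the Klf factors, Klf6, an early response gene, fell in KO from 8.99 to 8.55 log2 RPM, and its WT means were 8.82 and 8.42. Klf9, a factor induced by glucocorticoids, fell in WT from 7.25 to 6.54 (1.63-fold), whereas its KO means were 7.09 and 6.95. Klf15, a factor of amino acid and lipid metabolism, fell in WT from 2.95 to 1.96 (1.99-fold, 78.1 to 31.1 reads per library). In KO its means were 2.54 in control and 2.67 in colitis, so that the WT and KO changes had opposite signs at −0.99 and 0.13. Klf9 and Klf15 are also known to cycle over the day, so clock genes are set beside them. Of 10 clock genes of the phase of Dbp and Nr1d1, 9 are in the tables (the list was added after values were seen). In WT, 8 of these 9 had a colitis difference above 0, opposite to Klf9 and Klf15, and that of Nr1d1 was −0.23. Of the 9, 4 rose and 0 fell in WT with a median of 0.55, and in KO 8 rose and 0 fell with a median of 1.48. In KO minus WT their median was −0.61 in control, with 8 of 9 below 0 and 2 in the table, and 0.48 in colitis, with 8 of 9 above 0 and 0 in the table. In 4 genes of the opposite phase, such as Arntl, the KO minus WT medians were 0.25 and −0.26, with 0 in either table, and the colitis medians were −1.32 in WT, where 3 fell and 1 rose, and −1.75 in KO, where 3 fell. In KO minus WT, Klf15 was −0.41 in control and 0.71 in colitis and Klf9 was −0.16 and 0.40, also outside the tables. The time of collection of each mouse is not given in the sources used here, and its part in these values was not tested. The upstream window of Klf15 on chr6:90462326-90462575 (plus strand) is shown because it held the E-box CACGTG, the element bound by the clock factors, at 2 places, marked by capitals. CACGTG was in 3 of the 20 members (Fzd9, Klf6 and Klf15) and in 6.02% of all windows, and the window of Klf9 held none.
Klf15: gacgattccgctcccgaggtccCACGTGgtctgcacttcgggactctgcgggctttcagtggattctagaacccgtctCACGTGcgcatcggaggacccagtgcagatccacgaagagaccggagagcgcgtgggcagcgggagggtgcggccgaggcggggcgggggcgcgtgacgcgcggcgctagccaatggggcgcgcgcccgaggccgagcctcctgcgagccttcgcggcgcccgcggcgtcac

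Other genes of these pathways were looked up from lists of names. Of 52 further Wnt genes looked up, 14 are in the tables. In WT 5 rose and 4 fell, and in KO 4 rose and 8 fell. Wisp2, a secreted matricellular protein, rose by 3.70 in WT and 2.80 in KO, and its relative Wisp1 by 1.35 and 0.63. Known targets of the pathway were among the genes of this list that rose and among those that fell. Some are named here after their values were seen. Ccnd1, which encodes cyclin D1, rose by 0.81 in WT and 0.53 in KO, and the surface receptor Cd44 rose by 0.35 in WT, with a difference of 0.12 in KO. Nkd1 of the same list, also named after its values were seen, fell by 0.53 in KO and had a difference of −0.23 in WT. Notum, an enzyme that inactivates Wnt ligands, fell in both genotypes to means under the floor, and measured against the floor its change was −1.71 in WT and −1.70 in KO. Of 36 further Notch genes 9 are in the tables, where 3 rose and 2 fell in WT and 3 rose and 4 fell in KO. Those with the largest changes were the ubiquitin ligases Neurl1a (−1.56 in WT and −1.21 in KO, a fall in both) and Dtx3l (1.06 and 0.98, a rise in both) and the Notch-binding protein Dner, which fell in WT (−0.92) and had a difference of −0.91 in KO. Dlk1, a relative of the Notch ligands that was singled out after its values were seen, is in both tables of KO against WT, higher in KO by 1.69 in control and by 2.38 in colitis.

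Of 33 crypt and niche genes 11 are in the tables, where 2 rose and 8 fell in WT and 2 rose and 5 fell in KO. Grem1, a BMP antagonist of the fibroblasts below the crypts, rose by 2.31 in WT and 1.49 in KO. Tnfrsf19, also called Troy and a marker of crypt stem cells, fell by 1.57 in WT and by 1.10 in KO. Prom1 and Smoc2 of the same list, named after values were seen, did not follow it. Prom1 rose by 0.50 in WT, with a difference of −0.08 in KO, and Smoc2 rose by 0.41 in KO, with a difference of 0.28 in WT. Pou2f3, the factor that specifies tuft cells, fell by 1.90 in WT, and its KO difference was −1.24. The medians over the Wnt, Notch and crypt lists were −0.36, −0.40 and −0.66 in WT and −0.43, −0.49 and −0.51 in KO. Leukocyte markers rose for all 6 of 6 in both genotypes, with medians of 1.37 and 1.26, and their summed level went from 555 to 1359 RPM in WT and from 572 to 1331 RPM in KO. Of 6 smooth muscle markers 2 are in the tables, Acta2 and Myh11, which both fell in WT while Myh11 alone fell in KO, and their summed level went from 3619 to 2345 RPM in WT and from 3358 to 2316 RPM in KO. Of 5 goblet cell markers, 1 was in a table, Clca1, which fell by 1.15 in WT and had a difference of −0.57 in KO.

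**Figure D3:**
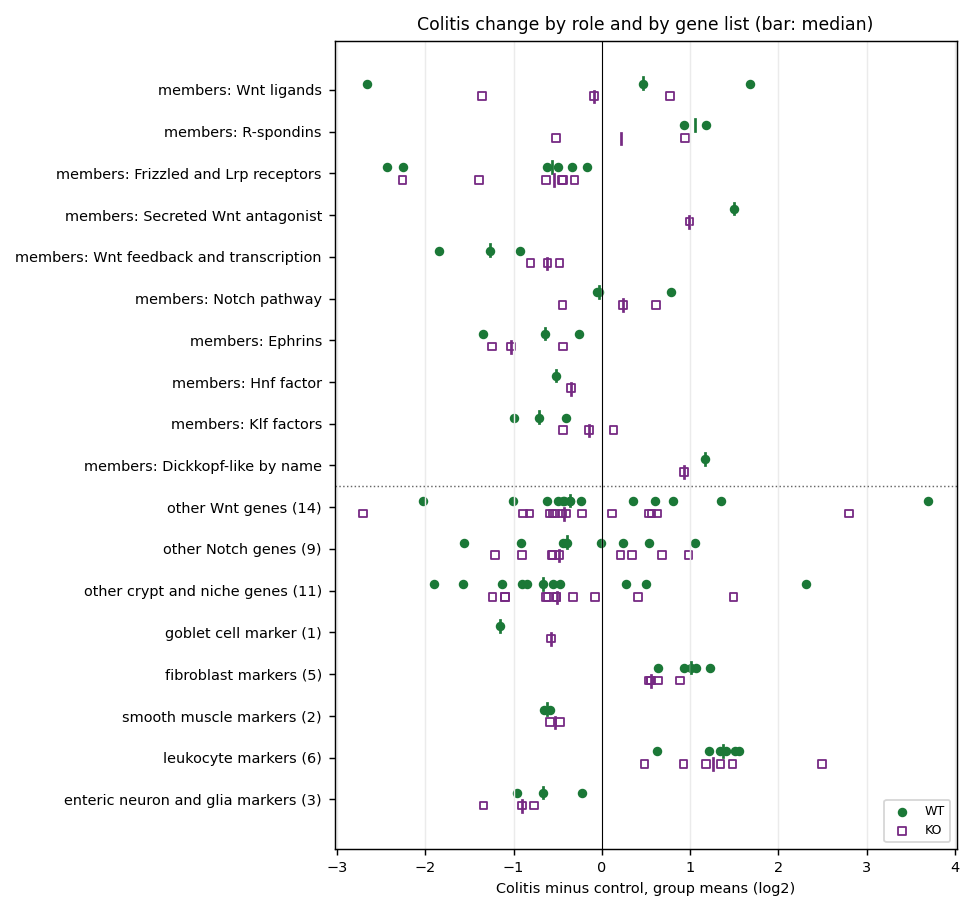
Change of each gene's group mean with colitis (log2, horizontal axis) in WT (green circles) and KO (open purple squares), by role of 26 of the 29 members above the dotted line and by other gene list below it, with the number of genes in the tables in brackets. Vertical bars are medians, and the fibroblast and leukocyte markers all lie above 0 while the receptor members all lie below it.

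KO was then compared with WT in each condition. In control, 0 of the 29 members are in the deposited table of KO against WT, which was made with DESeq2 and holds 0.890% of the 5171 genes (0.522% higher and 0.367% lower in KO). Unadjusted p-values were not analysed here. The differences ran from −0.41 (Klf15) to 0.47 (Wnt4), with a median of 0.04, and 0 members differed by 1 or more, beside 1.03% of genes higher and 0.656% lower by that much. In colitis 1 member, Wnt5a, was in the table, lower in KO by 0.46 (1.37-fold), beside 0.387% of all genes that were lower and 0.696% that were higher (1.08% together). Differences of at least 1 were seen for Rspo1 (−1.01), Fzd9 (1.05) and Wnt8b (1.49), none of which is in the table. For all genes, 2.72% were lower and 1.43% higher by as much. With the WT colitis mean of Wnt8b raised to 3 reads, its difference was 0.02. The secreted factors Sfrp1 (−0.70), Rspo3 (−0.52) and Wnt4 (−0.44) had lower means in KO colitis and Ascl2 (0.84), Axin2 (0.46) and Tcf7l1 (0.34) higher means, and none of these 6 genes passed that comparison. Beside them, the 5 fibroblast markers had a median of −0.43, between −0.63 and −0.18, and none of the 5 is in that table either.

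**Figure D4:**
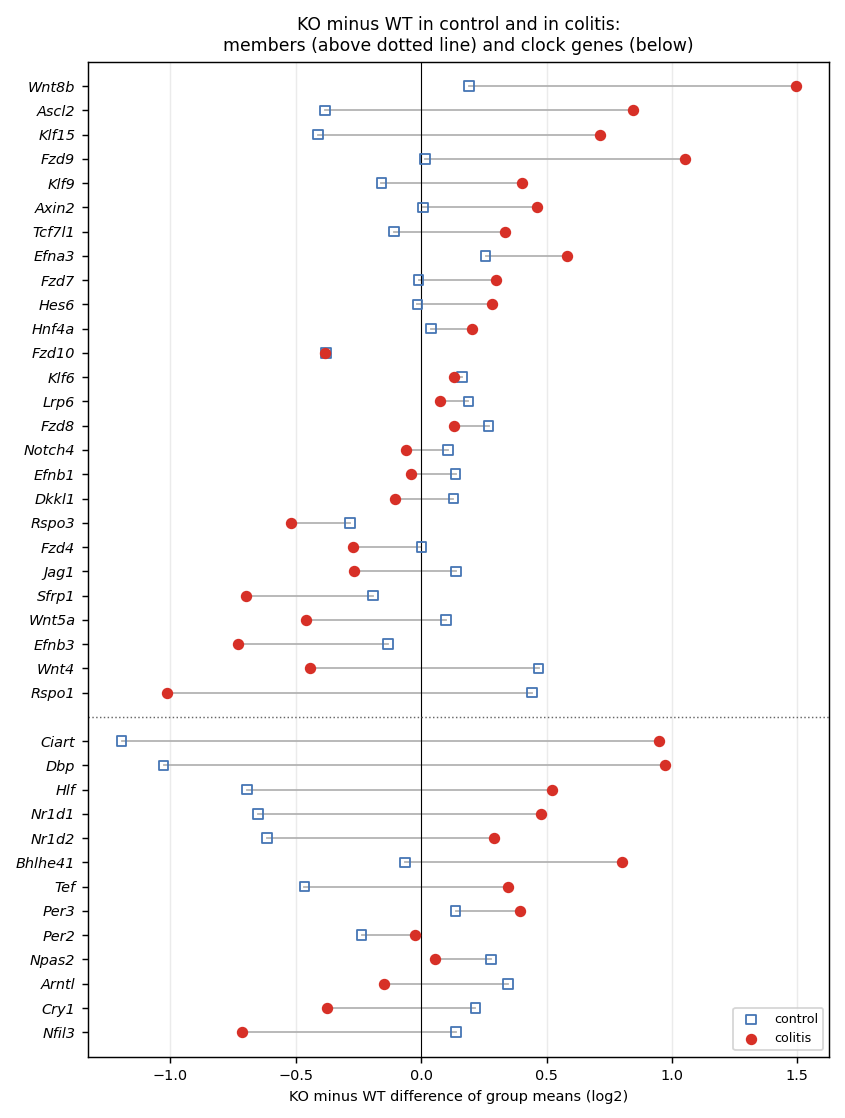
Difference of the group means of KO and WT (log2, horizontal axis) in control (open blue squares) and colitis (red circles), for 26 of the 29 genes above the dotted line, ordered by the gap between the 2, and for 13 clock genes below it. In control these members lie between −0.41 and 0.47, and in colitis they spread from −1.01 to 1.49. The 1.49 is that of Wnt8b, whose WT colitis mean was under the floor. With that mean raised to 3 reads it was 0.02, and the next highest is Fzd9 at 1.05.

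The colitis change itself was compared between the genotypes as the KO minus WT difference of changes. It reached 1 in size for 5 of 29 members, Rspo1 (−1.45), Wnt8b (1.30), Ascl2 (1.23), Klf15 (1.12) and Fzd9 (1.04), and for 6.34% of all genes. Rspo1, Wnt8b, Ascl2 and Klf15 are in the WT colitis table alone, and being chosen for the WT change favours such a gap. The count of members is thus not read as an excess over all genes. Among the 12 members in both colitis tables, 1 (Fzd9) reached this size. With the mean under the floor raised to 3 reads, Wnt8b no longer passed this size. Of the 12 members in both colitis tables, all changed in the same direction in WT and KO. The share of all genes that did so was not computed, so this is not read as a result about the members. The change was smaller in KO for 8 of these 12, close to the 63.2% of all genes in both tables. Their median ratio of KO to WT change was 0.77, beside 0.93 over all genes in both tables. Of the 9 members in the WT table alone, the change was smaller in KO for all 9, as it was for 96.5% of genes in that position, and of the 8 in the KO table alone it was smaller in KO for 0, beside 9.02%. Genes that pass in 1 genotype only are chosen for a large change there, so these last counts say nothing about the genotypes. Whether the response of any member differed between WT and KO was not tested, since that needs values of single mice.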

How the data were processed

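RNA-seq of whole colon tissue was analysed for 16 mice in 4 groups, assigned by sample title. Per the labels and methods, reads were mapped to GRCm38 with HISAT2 2.1.0, reads over rRNA were removed, and uniquely mapped reads were counted over exons of merged transcripts in SeqMonk. The authors removed rRNA reads because they found rRNA contamination in some samples, and group means do not show which samples these were. The series' design text names small intestine, whereas the sample labels and methods name colon, which is used here. Labels and methods differ on whether reads were single-end or paired-end. The authors deposited 4 tables, each holding the genes with a DESeq2 adjusted p-value under 0.05 in 1 comparison, with group means as log2 RPM. The adjusted p-values of these tables were used only through which genes a table holds. Values of a gene were identical between tables (largest difference 0). From the lowest means, libraries without a read entered these means as 0.9 read.

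Changes were differences of the deposited log2 group means (Python 3.11.15, pandas 2.3.3). Library size per group was recovered from the steps of the lowest means (8 to 19 means a group, all on whole-read steps), a method tested on simulated data. The floor of 3 reads covers counting error only. No test was run, since values of single libraries were not analysed here. Medians and counts were set beside those of all 5171 genes. Of the 29 genes, all passed the floor in at least 1 group of each comparison, and 27 had the coordinates of GENCODE M21. For 3 of the 29, values are not reported here, though they enter the counts and medians. Upstream sequences are from RefSeq. Named with values were fixed pathway genes (7 of 24 in the tables), up to 3 genes a role with the largest colitis change, genes in a table of KO against WT, the 5 largest KO minus WT gaps, and genes with opposite changes of at least 0.3. Members and lists were chosen with earlier results of these data known. The clock genes were added after values were seen. From other lists, up to 3 genes with the largest colitis change were named, besides those marked as named after values were seen. Alternatives were the treatment of means under the floor, a 1.5-fold threshold, centring, filters and subsets of the members.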

Additional observations from a re-analysis of the deposited data

How the results depend on the processing

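No paired analysis was possible because the values used here are group means that carry no replicate numbers, and for the same reason no replicate could be left out. Over 15 counts and medians, 120 alternatives were computed, of which 102 stayed within 1.5-fold of the count or 0.2 of the median. Part of these could not differ, so the share is no measure of robustness. All 29 members passed the floor, so dropping that filter changed nothing, and a new threshold leaves medians as they are. For the gap between the genotypes, the limit to genes in a colitis table kept all 29 members. With the 1.5-fold threshold, 6 members were higher and 13 lower in WT, and 5 were higher and 11 lower in KO. In that setting KO against WT in colitis gave 4 higher and 3 lower, and 3 members had a negative gap between the genotypes. Without Klf, Hnf, ephrin and Dkkl1 genes, 5 members were lower by at least 1 in WT, with a median of −0.26, and 3 in KO. Raising low means to 3 reads, or requiring 1 RPM, left 1 member higher by at least 1 in KO against WT in colitis. Centring on all genes shifts the colitis changes by 0.13 in WT and 0.19 in KO. For KO against WT in colitis the all-gene median was only −0.014. Centring left 0 members lower by at least 1 there, as Rspo1, at the threshold, went from −1.013 to −0.999. Limited to genes in the table of the comparison, the WT median was −0.71, and for KO against WT in colitis 1 gene remained, so that the counts were 0 and 0 and the median turned from 0.02 to −0.46 (Wnt5a). Limited to the 12 genes in both colitis tables, an alternative chosen after seeing the data, 1 positive and 0 negative gaps of at least 1 were left. In KO against WT in control no gene was in the table, so that alternative gave no value. Of 232 values of single genes, 2 moved by 0.2 or more, both of Wnt8b when its mean under the floor was raised (−1.18 in WT, and 0.02 for KO against WT in colitis). The other values could not move by as much, so this count is no measure of robustness either. Centring shifts every value by less than 0.2, and only 1 member mean lay under the floor. With centring, the KO change of Klf15 (0.13) became −0.06. Depth limits Wnt8b, Fzd10 and Notum most.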
